A study of Mus musculus with 8 samples.

Results

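Mural cells and fibroblasts of the mouse brain and of GL261 tumours were taken as 1 population, the barcodes in which transcripts of pericytes, vascular smooth muscle and fibroblasts outweighed those of endothelial cells, and 98 of 7861 barcodes met this rule. From each of 8 single-cell tables the 1000 barcodes with the most UMIs (unique molecular identifiers, each standing for 1 captured transcript) were taken, those with at least 500 detected genes were kept, and values were expressed as UMIs per 10,000 UMIs of the barcode. A member carried at least 15 such units in the sum of Rgs5, Vtn, Pdgfrb, Kcnj8, Acta2, Col1a2 and Dcn with at least 2 of these 7 genes detected, carried more of them than of Cldn5, Ly6c1, Flt1, Pecam1, Slco1a4 and Ptprb together, and had less than 10 units of Col9a1, Lect1 and Rhox5, which marked tumour cells. Members were thus chosen by measured values, and the 16 genes of the rule are described only. The 12 of them with enough counts stayed in the tables fitted, and no call on them is read as a result. The 3 lowest members had sums of 16.5, 17.9 and 20.0, and the 3 highest barcodes that met everything but the threshold had 13.6, 10.9 and 10.2. A further 53 barcodes reached the threshold but carried as much or more of the endothelial genes, and 7 were kept out by the tumour genes alone.

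The study profiled the brain microenvironment of GL261 glioma, a mouse glioma line implanted into syngeneic C57BL/6 animals (C57BL/6N in the methods), in wild-type mice (WT, Irg1/Acod1 +/+) and in knock-out mice (KO, Irg1/Acod1 -/-) whose allele carries an insertion cassette in Acod1, a gene of itaconate synthesis in macrophages. Drop-seq, a droplet method that tags the 3′ ends of each cell's transcripts with a bead's barcode, gave 1 library per genotype for naïve brain and for tumours collected at 5 to 10 mm3 (early), 20 to 25 mm3 (intermediate) and 30 to 35 mm3 (late) after 500 cells had been implanted. Tumour libraries came from 1 mouse each and the 2 naïve libraries from 2 mice each, so the 6 tumour-bearing and 2 naïve libraries are the replicates. Naïve brains and the tumour core, marked out by magnetic resonance imaging, were dissociated with enzymes and passed over beads that remove myelin. Tumour-bearing and naïve libraries thus also differed in the tissue taken, so region and tumour cannot be told apart. The WT and KO animals were of opposite sex in the early and intermediate pairs. The labels place the implantation in the right striatum whereas the methods name the frontal cortex. The ages of the animals were not given in the sources used here.

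Pericytes sit on the capillary wall inside the basement membrane that they share with endothelial cells, and smooth muscle cells wrap arterioles and set their diameter by contraction. Fibroblasts of the brain lie in the meninges, around larger vessels and in the choroid plexus stroma, where they make collagens and other matrix. In injury and in tumours, perivascular fibroblasts and mural cells are known to lay down matrix and to secrete proteases that remodel it, and to take part in recruiting immune cells.

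The WT naïve library held 19 members and the KO naïve library 33. Among tumour-bearing libraries there were 10 (WT early), 7 (KO early), 3 (WT intermediate), 12 (KO intermediate), 7 (WT late) and 7 (KO late), so that 52 members were naïve and 46 came from tumours. As a share of the 4002 barcodes under the tumour limit, members made up 1.95% and 3.71% in the naïve libraries and between 1.44% and 3.80% in the tumour-bearing ones (mean 2.50% ± 0.88, SD, n = 6). The difference of means was −0.32 percentage points, the groups overlapped, and an exact two-sided permutation test over libraries gave p = 0.714, where 6 against 2 libraries cannot give less than 0.0714. Its sign was not stable, as it turned to 0.558 without the KO naïve library. Endothelial cells, gated in the mirror-image way, numbered 353 in naïve and 122 in tumour-bearing libraries. They made up 17.5% and 20.5% of barcodes under the tumour limit in the naïve libraries and between 2.53% and 6.47% in the tumour-bearing ones, whereas the share of members overlapped. There were 11.1 and 18.1 members per 100 endothelial cells in the naïve libraries and between 22.2 and 150 in the tumour-bearing ones, without overlap (exact two-sided permutation p = 0.0714, the smallest possible), and the value of 150 rested on 3 members and 2 endothelial cells of WT intermediate.

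**Figure D1:**
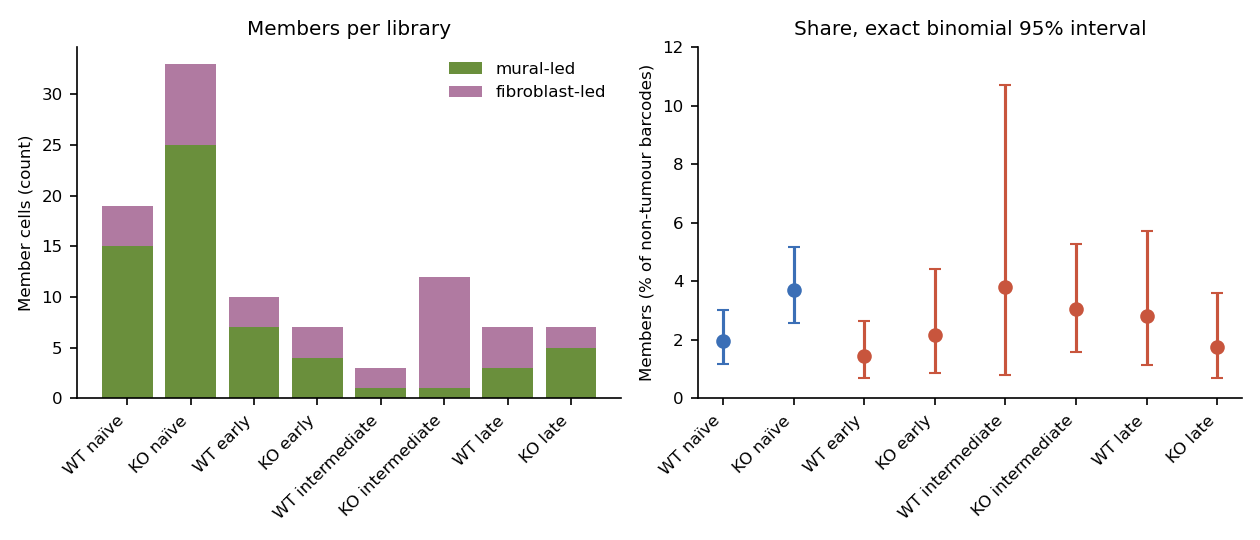
Left, member cells per library as stacked bars (count), mural-led in green and fibroblast-led in purple. Right, members as a percentage of barcodes under the tumour limit, with exact binomial 95% intervals that cover counting error only. The KO intermediate library holds 11 fibroblast-led cells and 1 mural-led cell, and the shares of naïve (blue) and tumour-bearing (red) libraries overlap.

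Members fell into 2 kinds by which rule genes led. In 61 members the 5 mural genes (Rgs5, Vtn, Pdgfrb, Kcnj8, Acta2) summed to at least as much as the fibroblast genes Col1a2 and Dcn, and these are called mural-led. The other 37 are called fibroblast-led. In 90 of 98 members one sum was at least 3 times the other, although 58 had some UMIs of both. Mural-led cells were 78.9% and 75.8% of members in the WT and KO naïve libraries, and 70.0% (WT early), 57.1% (KO early), 33.3% (WT intermediate), 8.33% (KO intermediate), 42.9% (WT late) and 71.4% (KO late) in tumours. Every tumour value lay below both naïve values, a description only, since the rule genes define the split. Without the members in which a list of another cell type outweighed the 7 marker genes, the KO naïve value became 66.7% and that of KO late 80.0%, and the groups then overlapped. Every sum over all members below carries the mix of the 2 kinds.

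**Figure D2:**
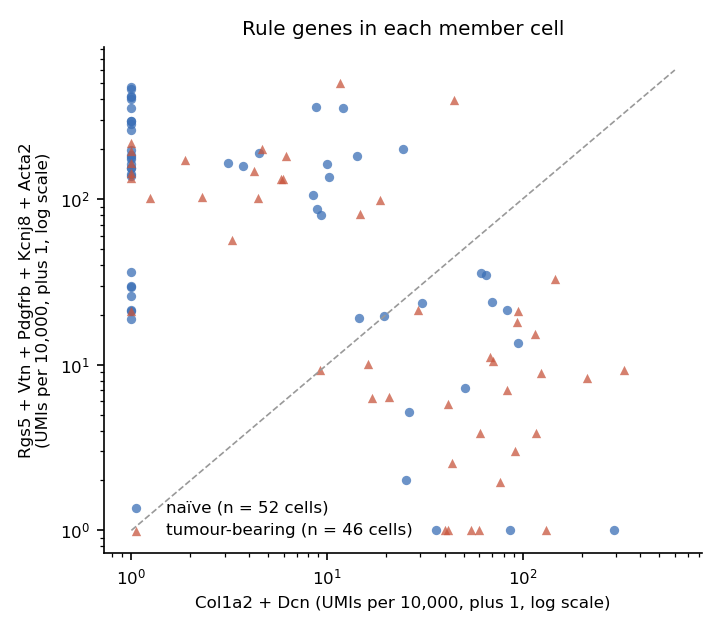
Each point is 1 member cell, placed by Col1a2 + Dcn (x) and by the 5 mural rule genes (y), both in UMIs per 10,000 plus 1 on log scales. Circles are the 52 naïve and triangles the 46 tumour members, and the dashed line marks equal sums. Most cells lie far from the line, on one axis or the other.

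Markers outside the rule followed the split. A list of 18 further pericyte genes (such as Abcc9, Higd1b and Notch3) summed to between 30.9 and 134 UMIs per 10,000 in mural-led cells across the 8 libraries and to between 3.84 and 41.0 in fibroblast-led cells, with 6 of the 18 at 0 in all of the latter. A list of 18 further fibroblast genes (such as Col1a1, Lum and Apod) summed to between 142 and 533 in fibroblast-led cells and to between 13.1 and 122 in mural-led cells. The 12 further smooth muscle genes (such as Tagln, Myh11 and Cnn1) reached between 3.92 and 157 in mural-led cells, and the lowest values belonged to the lone mural-led cell of each intermediate library. The label of mural cells and fibroblasts thus held in these markers, within a gate that mixes pericytes, smooth muscle and fibroblasts.

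Transcripts of other cell types were present at levels that differed between libraries. Members of the KO naïve library carried 168 UMIs per 10,000 of 8 oligodendrocyte genes and those of WT naïve 48.5, against 2.00 to 6.40 in tumours, but that list includes Ptgds, which fibroblasts of the meninges also express. Astrocyte genes reached 16.8 and 22.3 in naïve members and 0.82 to 6.40 in tumour members, and choroid plexus genes 12.6 and 28.7 against 0.13 to 6.18. In 9 mural-led members of the KO naïve library and 2 members of KO late, a list of another cell type outweighed the 7 marker genes (4 and 1 by oligodendrocyte genes without Ptgds), and results are given without these cells where they change. Endothelial rule genes summed to at least 15 in 22 members, 8 of them naïve, and to 0 in 61. Macrophage genes reached at most 5.18 in members of any library, against 56.2 to 133 in the other barcodes of tumours, and 6 of 8 lymphocyte genes were at 0. The tumour genes Col9a1, Lect1 and Rhox5 were at 0 in naïve members and between 0.15 and 3.19 in tumour members, and 81 members had none. Tumour members were also deeper, with a median of 3966.5 UMIs per cell against 1249, and in each tumour-bearing library the deepest cell gave between 24.2% and 43.6% of the member UMIs. No member shared its barcode with a kept barcode of another library, any pair of tables shared at most 10 of 3000 barcodes, and no member held an Acod1 UMI (329 in all other kept barcodes), so genotype could not be checked in these cells.

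To ask which genes differed between members of tumour cores and of naïve brain, UMIs were summed over the members of each library. The sums were compared with edgeR (quasi-likelihood test, genotype in the model). Sums of at least 5 cells entered, which left WT intermediate out of the fit, so 5 tumour-bearing libraries stood against 2 naïve ones. Of 2016 genes tested, 14 passed a Benjamini-Hochberg adjusted p of 0.05 (0.694%), 405 had an unadjusted p under that value, and DESeq2 called 72. One of the 14, Kcnj8, belongs to the rule. Of the other 13, 5 rose in tumours, among them the tissue-remodelling gene Mmp3 and the signalling genes Zbp1, Nfkbiz and Rgs16, while Ptgds, Ttr, Slc6a13, Slc6a20a, Slc1a2, P2ry14, Ptn and Cped1 fell. All 13 had every tumour value, WT intermediate included, on one side of both naïve values, as had 13.3% of all tested genes on the upper side and 9.47% on the lower. The calls leaned on single libraries. No gene passed without KO naïve (163 at an unadjusted p under 0.05) or without KO intermediate (287), 1 passed without KO early, 2 without WT naïve and 2 without KO late, whereas 115 passed without WT early and 72 without WT late. Without the members outweighed by another cell type's list, 4 passed, 0 of them higher. Those outside the rule were Ptgds, Ptn and Ttr, so no gene that rose, Mmp3 included, kept its call. Slc1a2 and Ttr alone passed once doublets were removed, and Ttr was the only one of the 13 to pass without KO early, without KO late or in cells with at least 1000 genes.

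**Figure D3:**
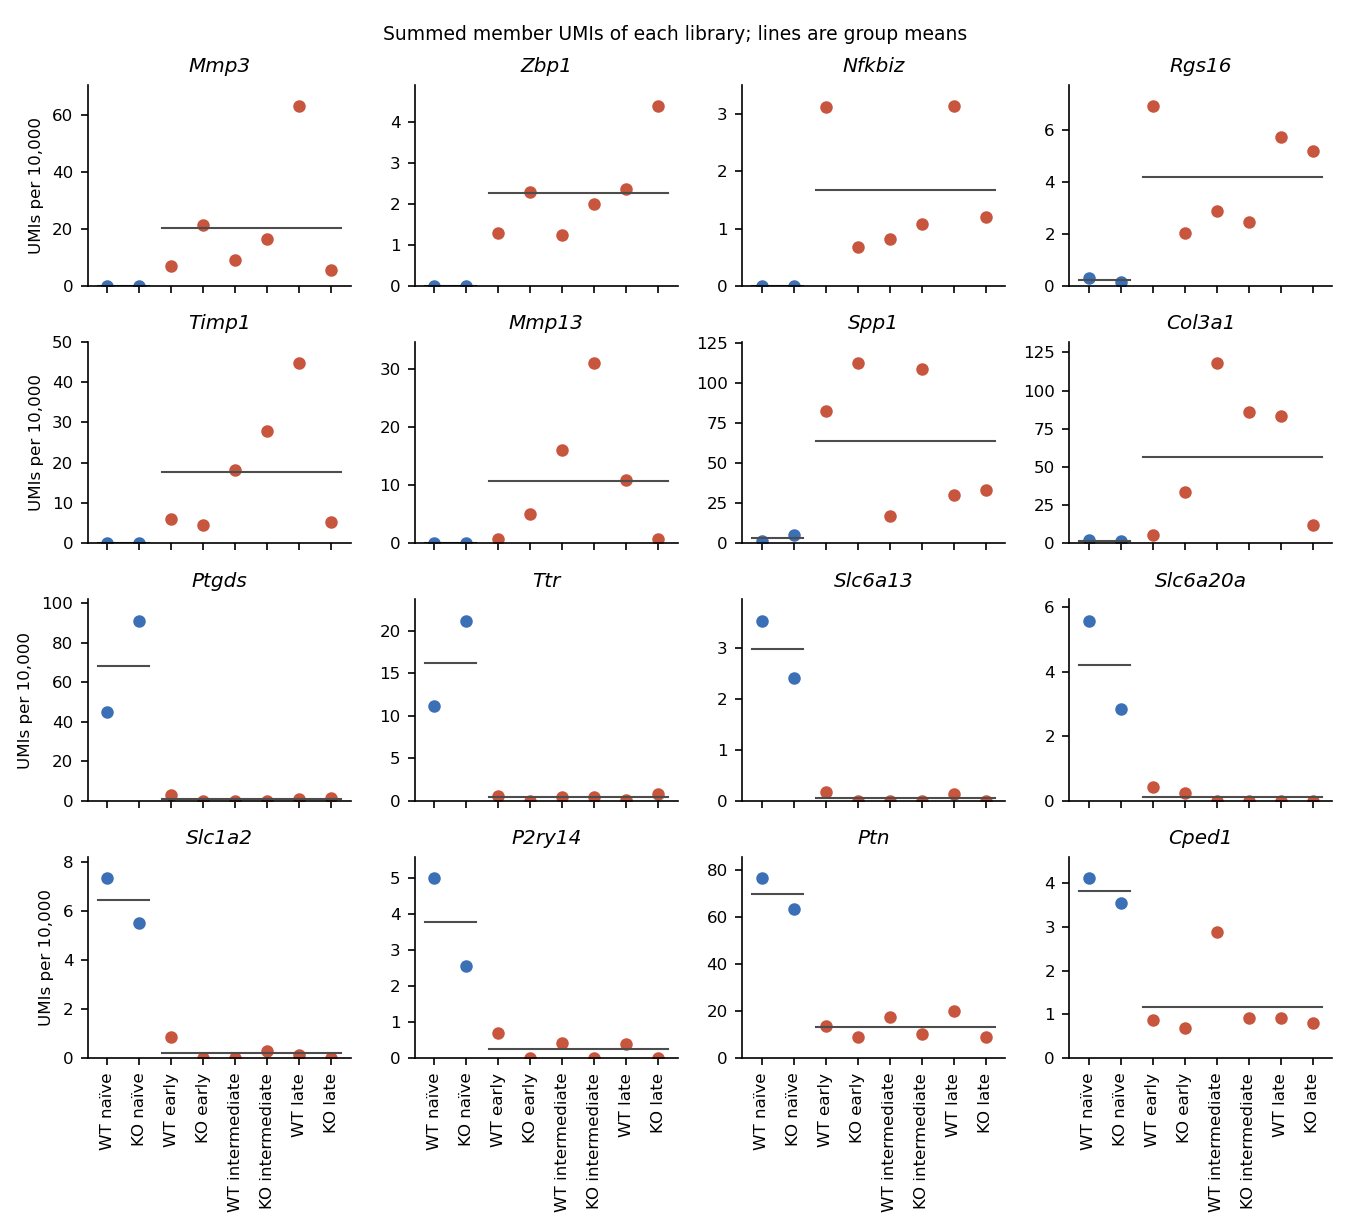
Summed member UMIs per 10,000 in each library (y, linear from 0) for 16 genes, with naïve libraries in blue, tumour-bearing libraries in red and lines at the group means. Mmp3, Timp1 and Mmp13 are at 0 in both naïve libraries and above 0 in all 6 tumour-bearing ones, and Ptn is at least 63.4 in naïve and at most 20.0 in tumour members.

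Genes of matrix proteolysis were among those that rose. Mmp3 (stromelysin-1, which cleaves proteoglycans and fibronectin and activates other metalloproteinases, GRCm38 chr9:7445822-7455975) had no UMI among the 104476 of naïve members, which allows up to 0.287 per 10,000. Its level was 7.09 (WT early), 21.4 (KO early), 9.06 (WT intermediate), 16.6 (KO intermediate), 63.3 (WT late) and 5.58 (KO late). Mmp3 was thus at least 80.0-fold higher in pooled tumour members, taking 3 UMIs over the naïve group as the floor, and passed the edgeR test (Benjamini-Hochberg adjusted p = 0.0401). The call was lost without doublets (edgeR, adjusted p = 0.0670), at a marker sum of at least 30 and without the members outweighed by another cell type's list. The early values came from 1 cell in each library, whereas 10 of 12 members of KO intermediate held it. The 80.0-fold carries the mix of the 2 kinds, as fibroblast-led cells gave 34334 of 104476 naïve and 208867 of 350463 tumour member UMIs. Fibroblast-led cells of WT late alone held 485 of the 805 tumour Mmp3 UMIs. In tumours 17 of 25 fibroblast-led and 2 of 21 mural-led cells had Mmp3 UMIs, with 37.3 UMIs per 10,000 pooled against 1.84 in mural-led cells. Endothelial cells of tumours, at a median depth of 2332.5 UMIs against 3902 in those fibroblast-led cells, had none in 122 cells (which allows up to 3 UMIs in 554238), and the remaining non-tumour barcodes had 0.01.

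Timp1, an inhibitor of such proteases, and Mmp13, the collagenase that cuts fibrillar collagen, had the same layout without passing the test. Timp1 had 0 naïve UMIs and tumour values of 6.14, 4.56, 18.1, 28, 44.6 and 5.18 in the order above (adjusted p = 0.0589 by edgeR with Benjamini-Hochberg adjustment). Mmp13 had 0 naïve UMIs and tumour values of 0.69, 5.02, 16.1, 30.9, 10.8 and 0.80 (adjusted p = 0.117 by the same test). Pooled over tumours they were at least 66.8-fold and 35.3-fold above the naïve floor, and both sat in fibroblast-led cells, at 31.4 for Timp1 and 17.0 for Mmp13 against 1.20 and 0 in mural-led cells. Adamts4, which cleaves aggrecan-type proteoglycans, had 1 UMI in naïve and 53 in tumour members, a ratio of 15.8 with a counting interval of 2.72 to 636 (adjusted p = 0.0824).

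Metalloproteinase genes are textbook targets of AP-1, the dimer of Fos and Jun proteins that binds TGANTCA. The promoters of Mmp3, Timp1 and Mmp13 are shown because these genes, with Ccl2, had the largest fitted rise among the named genes, and the RefSeq table used here gave 300 bases for 3 of the 4, from 250 before to 50 after the start (GRCm38.p6, plus strand). Capitals mark each match to TGANTCA, a motif that reads the same on both strands. Mmp3 at chr9:7445572-7445871 has 1 match that begins 46 bases before the start, Mmp13 at chr9:7272264-7272563 has 1 that begins 35 bases before it, and Timp1 at chrX:20869916-20870215 has 0.
Mmp3: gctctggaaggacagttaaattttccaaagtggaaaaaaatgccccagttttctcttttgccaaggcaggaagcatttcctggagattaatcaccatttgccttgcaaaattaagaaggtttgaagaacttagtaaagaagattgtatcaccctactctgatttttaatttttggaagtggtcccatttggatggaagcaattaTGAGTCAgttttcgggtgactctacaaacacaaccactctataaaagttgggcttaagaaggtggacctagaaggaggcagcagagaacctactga
Mmp13: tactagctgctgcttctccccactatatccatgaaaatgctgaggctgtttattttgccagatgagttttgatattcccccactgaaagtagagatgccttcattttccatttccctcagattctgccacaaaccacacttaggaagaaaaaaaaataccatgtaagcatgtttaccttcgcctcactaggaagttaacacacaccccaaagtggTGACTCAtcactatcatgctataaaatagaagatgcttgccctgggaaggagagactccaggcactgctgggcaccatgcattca
Timp1: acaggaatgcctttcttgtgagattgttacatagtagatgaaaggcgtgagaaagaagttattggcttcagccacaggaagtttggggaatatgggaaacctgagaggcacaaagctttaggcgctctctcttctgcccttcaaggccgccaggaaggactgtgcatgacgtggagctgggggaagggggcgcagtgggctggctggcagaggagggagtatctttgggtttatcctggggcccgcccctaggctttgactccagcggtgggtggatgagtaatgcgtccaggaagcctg
Of all 32851 promoters of this length in the table, 7.81% hold at least 1 match, and a match is a description of letters, not of binding.

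Rgs16, Zbp1 and Nfkbiz, which also rose, act in signalling. Rgs16, a regulator that shortens G-protein signals (chr1:153740349-153745468), was at 0.29 (WT) and 0.14 (KO) in naïve members and at 6.92 (WT early), 2.05 (KO early), 2.88 (WT intermediate), 2.46 (KO intermediate), 5.74 (WT late) and 5.18 (KO late) in tumours. With 2 naïve and 169 tumour UMIs the ratio was 25.2 with a counting interval of 6.87 to 210 (log2 fold change 4.19, SE 0.72, edgeR with Benjamini-Hochberg adjusted p = 0.0343). Its tumour levels were alike in mural-led (4.17) and fibroblast-led (5.27) cells and lower in tumour endothelial cells (1.19).

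Zbp1, an interferon-inducible sensor of Z-form nucleic acids (chr2:173206612-173218923), had 0 naïve UMIs and tumour values between 1.24 and 4.38 with a median of 2.14. Nfkbiz, which encodes the nuclear NF-κB cofactor IκBζ (chr16:55811375-55838899), had 0 naïve UMIs and tumour values between 0.68 and 3.13 with a median of 1.14. The rises were at least 6.96-fold for Zbp1 (adjusted p = 0.0401) and at least 7.45-fold for Nfkbiz (adjusted p = 0.0458, both edgeR with Benjamini-Hochberg adjustment). Neither was confined to members. Other non-tumour barcodes of tumours had 1.48 of Zbp1 and 3.18 of Nfkbiz, and tumour endothelial cells 1.10 and 1.84, and the part of RNA from other cells in these low member values was not tested.

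Among the genes that fell, some were held by 1 kind of member in naïve brain. Ptgds, the prostaglandin D synthase made by meningeal fibroblasts and oligodendrocytes, was at 45 (WT) and 91.0 (KO) in naïve members and between 0 and 3.03 in tumour members (log2 fold change −6.58, SE 1.02, edgeR with Benjamini-Hochberg adjusted p = 0.0308). Fibroblast-led cells carried it, with 157 and 247 in the naïve libraries and at most 9.06 in any tumour-bearing one. The WT naïve value rested on 4 fibroblast-led cells, 2 of them called doublets, whereas 0 members of KO naïve were so called. The Ptgds call was lost once doublets were removed. Slc6a13, a GABA and taurine transporter of meningeal fibroblasts, went from 3.53 and 2.41 to values between 0 and 0.17 (29 against 3 UMIs, naïve over tumour 32.4 with a counting interval of 10.1 to 166, adjusted p = 0.0401). Pooled fibroblast-led cells held 8.16 in naïve brain and 0.10 in tumours, whereas endothelial cells held at most 0.07.

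Ptn, which encodes the heparin-binding growth factor pleiotrophin, fell from 76.4 (WT) and 63.4 (KO) to between 8.76 and 20.0 with a median of 12, and the groups did not overlap (log2 fold change −2.62, SE 0.45, edgeR with Benjamini-Hochberg adjusted p = 0.0343). The difference was present in both kinds of member, from 45.9 to 11.4 in mural-led and from 112 to 15.3 in fibroblast-led cells. It was not confined to members, as endothelial cells held 26.7 and 26.1 in naïve libraries and between 6.31 and 22.9 in tumour-bearing ones. Cped1 fell from 4.11 and 3.55 to between 0.68 and 2.88 (log2 fold change −2.25, SE 0.44, adjusted p = 0.0458), with WT intermediate nearest to the naïve values.

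P2ry14 and Slc6a20a, both in the pericyte list, fell as well. P2ry14, a receptor for UDP-sugars, was at 5.00 and 2.55 in naïve members and between 0 and 0.69 in tumour members (log2 fold change −4.07, SE 0.76, adjusted p = 0.0401). It was at 0 in fibroblast-led cells of either condition, and at 4.99 and 0.85 in mural-led cells. Slc6a20a, a transporter of proline and other imino acids, went from 5.58 and 2.84 to between 0 and 0.43 (log2 fold change −4.65, SE 0.81, adjusted p = 0.0343 by edgeR with Benjamini-Hochberg adjustment), from 4.28 to 0.14 in mural-led and from 2.62 to 0.19 in fibroblast-led cells. The pericyte list as a whole stood at 60.6 and 108 in naïve members and between 13.6 and 33.8 in tumour members, without overlap, and in mural-led cells alone at 76.1 and 134 against 30.9 to 55.7.

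Ttr and Slc1a2 are chiefly genes of other cells, choroid plexus epithelium and astrocytes. Ttr was at 11.2 and 21.1 in naïve members and between 0 and 0.80 in tumour members (log2 fold change −5.44, SE 0.625, edgeR with Benjamini-Hochberg adjusted p = 0.0048). Naïve endothelial cells held 22.6 and other naïve non-tumour barcodes 189, beside pooled levels of 23.5 in mural-led and 6.41 in fibroblast-led members. Slc1a2 was at 7.35 and 5.54 in naïve members against 0 to 0.86 in tumours (log2 fold change −4.35, SE 0.68, adjusted p = 0.0308), while naïve endothelial cells held 5.81 and other naïve barcodes 33.1. Neither is read as expression by mural cells or fibroblasts.

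**Figure D4:**
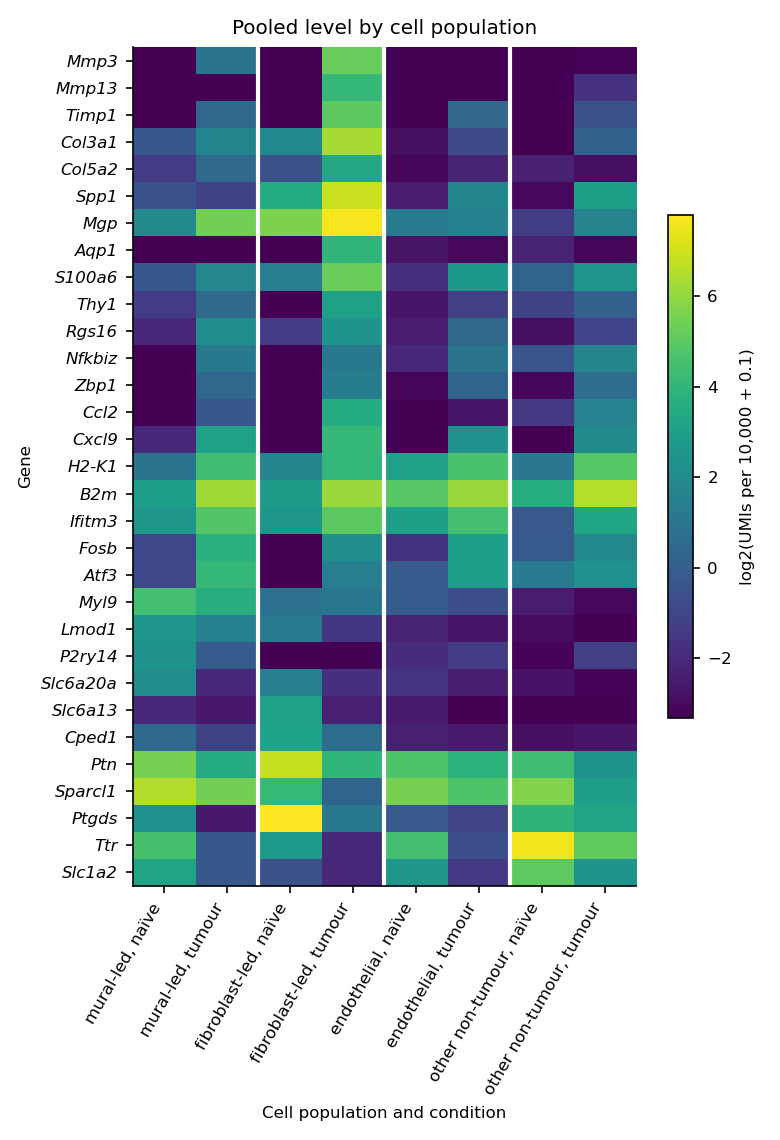
Colour gives log2 of pooled UMIs per 10,000 plus 0.1 for each gene (rows) in mural-led members, fibroblast-led members, endothelial cells and other non-tumour barcodes (columns, naïve and tumour-bearing side by side). Mmp3 reaches 37.3 UMIs per 10,000 in fibroblast-led tumour members and 0 in endothelial cells, Ptgds falls from 221 to 2.15 in fibroblast-led cells, and Ttr is highest in the other naïve barcodes (189).

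Gene lists for the biology of stroma, 12 in all, were then read against all tested genes, whose median log2 fold change was 0.09. No gene of 10 lists passed the test. In the list of proteases, inhibitors and crosslinkers 2 of 17 tested genes passed, among them Mmp3, and in the activated fibroblast list 1 of 13. The genes whose 6 tumour values all lay above both naïve values numbered 10 of 17 for proteases, 8 of 13 for activated fibroblast genes and 6 of 11 for collagens, beside 13.3% of all tested genes. The medians of fitted log2 fold changes were 2.30 for proteases, 2.88 for collagens (2.66 with the gene at 0 naïve UMIs set to its bound) and 3.22 for activated fibroblast genes (3.08 likewise).

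Collagens had 11 of 11 fitted fold changes above 0 and 7 at an unadjusted p under 0.05, beside 405 of all 2016 tested genes. Col3a1, a fibrillar collagen of soft tissue, was at 2.06 (WT) and 1.42 (KO) in naïve members and at 5.71 (WT early), 33.5 (KO early), 118 (WT intermediate), 86.0 (KO intermediate), 83.3 (WT late) and 11.9 (KO late) in tumours, without overlap (log2 fold change 4.57, SE 1.24, edgeR with Benjamini-Hochberg adjusted p = 0.0867). Within fibroblast-led cells its pooled level was 3.50 in naïve brain and 80.5 in tumours. Col5a2, which helps nucleate such fibrils, was at 0.29 and 0.43 against 1.99 to 13.6 (log2 fold change 3.83, SE 1.00, adjusted p = 0.0824).

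Of 21 matrix glycoproteins and proteoglycans tested, 8 lay above and 1 below both naïve values in all tumours, beside 13.3% and 9.47% of all tested genes. The median log2 fold change was 0.95. Spp1 (osteopontin) was at 1.47 and 5.39 in naïve members and between 16.9 and 112 in tumours (log2 fold change 4.34, SE 0.90, adjusted p = 0.0551 by edgeR with Benjamini-Hochberg adjustment), and pooled levels in fibroblast-led cells were 11.4 and 120. Mgp (matrix Gla protein, an inhibitor of calcification) was at 6.76 and 23.8 against 30.3 to 315, with the highest value in KO intermediate (log2 fold change 3.06, SE 0.90, adjusted p = 0.106). Sparcl1 was the one below, at 91.7 and 55.8 against 7.23 to 31.3 (log2 fold change −2.22, SE 0.58, adjusted p = 0.0824).

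The contractile and cytoskeletal list had a median of −0.38 over 18 genes and 0 calls. Myl9, the regulatory light chain of smooth muscle myosin, was at 22.3 and 12.2 in naïve and between 0.82 and 9.86 in tumour members, and Lmod1 (leiomodin) at 8.23 and 2.84 against 0 to 2.16. Within mural-led cells alone the pooled Myl9 levels were 22.2 and 11.9 and those of Lmod1 5.70 and 2.82, but the libraries overlapped. Mural-led Myl9 was at 28.8 (WT) and 18.8 (KO) in naïve libraries and at 20.0 in WT late. Lmod1 was at 8.65 and 4.14 against 7.80 in WT late. Both genes were at 0 in the lone mural-led cell of each intermediate library. Vim and Tpm4 ran the other way without passing, at 24.9 to 45.8 against 14.4 and 6.81 for Vim.

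**Figure D5:**
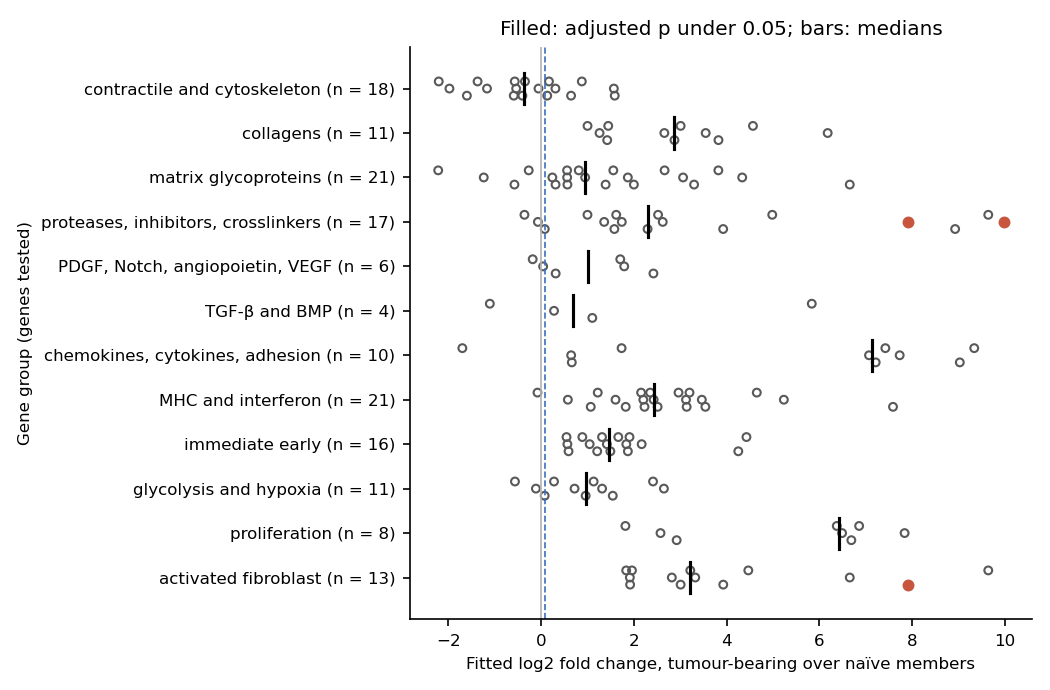
Each point is 1 tested gene placed by its fitted log2 fold change, tumour-bearing over naïve members (x), in 12 gene lists (y, with the number of genes tested). Filled points passed a Benjamini-Hochberg adjusted p of 0.05, black bars are list medians and the dashed line is the median of all 2016 tested genes, 0.09. Fitted values beyond about 5 belong mostly to genes with no naïve UMI, for which the fitted size depends on the prior count of the fit.

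MHC and interferon genes had 20 of 21 fitted fold changes above 0 and a median of 2.43. In all tumours 6 lay above both naïve values, beside 13.3% of all tested genes, and 0 passed in the sums over all members. B2m, the invariant chain of MHC class I, was at 9.41 and 5.96 in naïve and between 15.9 and 109 in tumour members (log2 fold change 3.14, SE 0.85, edgeR with Benjamini-Hochberg adjusted p = 0.0867). Ifitm3, an interferon-induced membrane protein, was at 5.29 and 6.10 against 25.8 to 39.2 (log2 fold change 2.35, SE 0.55, adjusted p = 0.0699). H2-D1 and H2-K1 were higher in 5 of 6 tumour-bearing libraries, at up to 34.6 and 30.7, but in WT late each stood at 1.96, below both naïve values. Cd74, the invariant chain of MHC class II and also in the list, overlapped (0 and 4.54 against 0 to 11.6), with other non-tumour barcodes of tumours at 47.5. B2m stood at 94.0 in those other barcodes, beside 73.1 in mural-led and 69.6 in fibroblast-led members, and the part of RNA from other cells in the members' values was not tested.

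Several chemokines and cytokines had no UMI in naïve members. Of 10 tested genes 5 had no naïve UMI, and the median log2 fold change of 7.15 came to 3.27 with those set to their bounds. Ccl2, the main monocyte chemoattractant, was at 0 in both naïve libraries and at 1.82 (WT early), 36.0 (KO early), 0.82 (WT intermediate), 8.92 (KO intermediate), 0.13 (WT late) and 3.58 (KO late) in tumours, at least 24.7-fold higher in the pool (adjusted p = 0.0867). The KO early value came from 1 cell. Cxcl9, an interferon-γ-induced attractant of T cells, had 1 naïve and 461 tumour UMIs but was at 0 in WT intermediate and WT late. Ptgs2 (cyclooxygenase 2) had 0 naïve UMIs and was at 2.88 to 6.16 in 5 tumour-bearing libraries and at 0 in KO late. Its pooled tumour level was 7.37 in fibroblast-led and 0.35 in mural-led cells. Endothelial cells of tumours held between 0 and 3.90, with the highest value in KO late.

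Immediate early genes had 16 of 16 fitted fold changes above 0 and a median of 1.46. In all tumours 5 lay above both naïve values, beside 13.3% of all tested genes. Fosb was at 0.59 and 0.14 in naïve and between 2.39 and 16.1 in tumour members, and Atf3 at 0.88 and 0 against 1.70 to 16.9 (adjusted p = 0.0824 and 0.0933, edgeR with Benjamini-Hochberg adjustment). Fos itself overlapped, at 20.3 and 6.81 against 12.8 to 61.2 (log2 fold change 1.21, SE 0.675, adjusted p = 0.357), and Junb nearly separated, at 6.47 and 2.70 against 5.54 to 25.7. Fosb was likewise at 0.21 in naïve and 7.31 in tumour endothelial cells.

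Of 8 proliferation genes tested 5 had no naïve UMI, and the median of 6.44 came to 2.22 with bounds. Top2a was at 0 in naïve members and at 1.47 (WT early), 2.28 (KO early), 0.82 (WT intermediate), 7.85 (KO intermediate), 0.13 (WT late) and 11.5 (KO late) in tumours, beside 11.5 in tumour cells. Glycolysis and hypoxia genes had a median of 0.96 over 11 genes, with 2 above both naïve values in all tumours. Of all tested genes 13.3% lay above and 9.47% below both naïve values. The PDGF, Notch, angiopoietin and VEGF list (median 1.01 over 6 genes) had 0 genes without overlap, and the TGF-β and BMP list (median 0.69 over 4 genes) had 2 above and 1 below. Only 6 of 19 and 4 of 21 genes of these last 2 lists passed the filter on low counts.

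Since sums over all members mix mural-led and fibroblast-led cells, each kind was also fitted on its own, a choice made after seeing the data, with sums of at least 3 cells (4 tumour-bearing and 2 naïve libraries in each fit). In mural-led cells 12 of 426 genes passed (2.82%), 7 higher and 5 lower. Those higher were the class I genes B2m and H2-K1 and the immediate early or stress genes Atf3, Fosb, Ier2, Egr1 and Phlda1, and among those lower were Ttr, Slc1a2, Ptn and Malat1. B2m in mural-led cells was at 10.3 and 5.45 in naïve libraries and at 67.4 (WT early), 82.5 (KO early), 30.1 (WT late) and 103 (KO late) in tumours (log2 fold change 2.86, edgeR with Benjamini-Hochberg adjusted p = 0.0208). H2-K1 was at 2.06 and 1.74 against 17.4, 24.6, 13.4 and 34.1 in the same order, also without overlap (log2 fold change 3.25, adjusted p = 0.0171). In that order the endothelial rule genes summed to 10.7 and 31.8 against 60.2, 38.6, 37.9 and 4.63 in mural-led cells. B2m in endothelial cells was at 32.0 and 28.2 in naïve libraries and between 37.3 and 115 in the same tumours. The part of endothelial RNA in the mural-led values was not tested.

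In fibroblast-led cells 11 of 701 genes passed (1.57%), 3 higher and 8 lower. Those higher were Mmp3, Ptgs2 and the cell-cycle inhibitor Cdkn1a. Those lower were Slc6a13, Cped1, Ptn, Sparcl1, Itih5, Edn3, Gsn and Fgfr1. Mmp3 in fibroblast-led cells was at 0 in naïve libraries and at 21.8 (WT early), 40.6 (KO early), 18.8 (KO intermediate) and 71.7 (WT late) in the 4 tumour-bearing libraries of the fit (edgeR, Benjamini-Hochberg adjusted p = 0.0456). Sparcl1 was at 26.7 and 13.8 against 4.0, 0.43, 0.17 and 0.74 in the same order (log2 fold change −4.41, adjusted p = 0.0456). Outside this fit, Mmp3 in fibroblast-led cells was at 0.65 (1 UMI) in WT intermediate and at 11.5 in KO late. The lone mural-led cell of WT intermediate held 21 Mmp3 UMIs. Mmp3 and B2m passing in 1 kind only was not tested as a difference between kinds.

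Whether the tumour effect in members differed from that in endothelial cells of the same libraries was tested as an interaction with the library as a block. Of 2832 genes 1 passed (0.0353%), with 188 at an unadjusted p under 0.05. Igfbp4, which encodes a binding protein that restrains insulin-like growth factors, was at 1.76 and 1.99 in naïve members and between 0.40 and 3.71 in tumour members. Member values overlapped, with KO intermediate (2.46) and WT intermediate (3.71) above both naïve values. In endothelial cells of the libraries fitted it was at 0.02 and 0.05 in naïve libraries and at 2.73 (WT early), 0.84 (KO early), 5.88 (KO intermediate), 2.77 (WT late) and 3.04 (KO late) in tumours, above both naïve values in each (log2 difference of effects −6.21, SE 0.77, edgeR with Benjamini-Hochberg adjusted p = 0.0070). No gene passed without WT naïve (124 at an unadjusted p under 0.05), without KO naïve (163) or in mural-led members alone (101). Lamb1 (−3.87, SE 0.77, adjusted p = 0.229) and Aqp1 (10.39, SE 2.00, adjusted p = 0.229) came next.

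KO and WT members were compared with the stage as a block over the naïve, early and late pairs, and 0 of 1557 genes passed (0.0%, edgeR), with 78 at an unadjusted p under 0.05. The outcome moved with the stages included, as 7 genes passed without the naïve pair, 1 without the early pair and 9 without the late pair. Ccl2 had the smallest p. Its fitted log2 fold change was 4.21 (SE 0.74, edgeR with Benjamini-Hochberg adjusted p = 0.336), and it was at 0 in both naïve libraries. Its values in KO were above those in WT at all 3 tumour stages (36.0 against 1.82, 8.92 against 0.82 and 3.58 against 0.13). The intermediate pair (8.92 against 0.82) was outside the fit, and 36.0 came from 1 cell. The WT intermediate value rested on 2 UMIs and the WT late value on 1. Cenpa, Cenpe and Birc5, genes of mitosis, followed with fitted log2 fold changes of 4.53, 4.36 and 4.05 (adjusted p of 0.533, 0.731 and 0.731), and Rasl11a had −2.56 (adjusted p = 0.731). Sex differed between genotypes at the early and intermediate stages, so genotype and sex cannot be told apart there.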

How the data were processed

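Single-cell RNA was measured by Drop-seq in 8 libraries, 2 of naïve brain and 6 of tumour-bearing brain. The authors deposited tables of raw UMI counts per gene and barcode with 3000 barcodes each, not normalized. The submitters' processing notes name bcl2fastq 2.0, STAR and GRCm38 (mm10), and the version of STAR was not given in the sources used here. No deposited column was left unmapped (0 unused columns).

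From each table the 1000 barcodes with the most UMIs and at least 500 genes were kept, and members were chosen by the marker rule. The members and gene lists were chosen with earlier results of these data known. Counts were summed per library over members and tested with edgeR 4.0.16 (TMM scaling, filterByExpr, glmQLFit and glmQLFTest, Benjamini-Hochberg adjusted p under 0.05) in R 4.3.3, for sums of at least 5 cells. Comparisons were tumour against naïve with genotype as a term, the interaction with endothelial sums, and KO against WT with stage as a block. Scripts were tested on simulated data. Shares were compared by exact permutation over libraries, and intervals (95%, exact) and floors of 3 counts cover counting error only. DESeq2 1.42.0 was an alternative. Doublets were called with Scrublet in scanpy 1.11.5, with the top 5% of scores taken where it marked under 0.5% of barcodes, and were removed only as an alternative. Coordinates are from GENCODE M21.

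Genes named were those outside the rule that passed with no overlap between groups, up to 4 per gene list with the smallest p, the 5 smallest p of each other comparison, the 7 marker genes and 11 genes named in earlier results of these data. Genes of the separate mural-led and fibroblast-led fits were named after their values were seen. Kept barcodes had a median of 1598.5 to 5642.5 UMIs over libraries, and tumour members were deeper than naïve members. Libraries are separate animals, 1 per library in tumours, and p-values measure the spread between them. Some genes that met the rule for naming are not reported here.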

Additional observations from a re-analysis of the deposited data

Results flagged for a closer look

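Among 84 values compared across the 6 tumour-bearing libraries, 14 had 1 library whose gap to its nearest neighbour took more than 0.625 of the whole range, and chance flags about 1 in 20 groups. In WT late these were Mmp3 at 63.3, S100a6 at 57.8 and Aqp1 at 32.6 UMIs per 10,000, each the highest value. In WT early the highest values were Rgs5 at 64.3, Junb at 25.7 and Slc1a2 at 0.86. KO early stood high for Ccl2 at 36.0 and Ccnd1 at 8.44, KO intermediate for Mgp at 315 and KO late for Zbp1 at 4.38. WT intermediate, with 3 members, stood high for Cped1 at 2.88 and for members per 100 endothelial cells at 150, and low for Set at 0.41. Hes1 was low in KO late, at 0.80. The tumour effect on Igfbp4 differed between members and endothelial cells by the interaction test, with a log2 difference of −6.21.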

How the results depend on the processing

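The 14 genes that passed between tumour and naïve members became 72 with DESeq2, 178 without the filter on low counts, 97 with at least 10 cells per sum and 39 in mural-led members only, and 2 without doublets, 8 at a marker sum of at least 30, 1 at 1000 genes per cell, 0 in members with 0 tumour-marker UMIs (180 at an unadjusted p under 0.05) and 4 without members outweighed by another cell type. Leaving out 1 library gave between 0 and 115. The interaction gave 0 in mural-led members in both fits, and 0 to 1 with 1 library left out. KO against WT gave 1 to 9 with 1 stage left out, and could not be fitted in mural-led members. The difference in share turned to 1.00 at 1000 genes per cell and to 0.0977 without members outweighed by another cell type, and ranged from −1.21 to 0.558 with 1 library left out. Of 72 named genes over these settings, 9 values changed sign. Angpt1 was −0.0224 with at least 1 cell per sum and −0.719 to 1.96 with 1 library left out, Id1 −0.61 to 2.03, Igfbp4 0.0948 without doublets and −1.006 to 0.106, Lamb1 −0.45 in fibroblast-led members and −0.0183 to 1.39, and Pkm −0.00794 in mural-led members (log2 fold changes). The causes were not tested. Sums of at least 1 cell, each kind of member on its own with at least 3 cells, and members without another type's list were chosen after seeing the data. Depth limits what naïve members can show, as 3 of their UMIs are 0.287 per 10,000.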
